A study of Saccharomyces cerevisiae with 109 samples.

Results

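The 36 genes described here encode most of the nuclear subunits of the yeast respiratory chain and ATP synthase. They are 9 genes of complex III, 7 of complex IV, 15 of ATP synthase (its inhibitor INH1 included), the 3 NADH dehydrogenases NDI1, NDE1 and NDE2, the lactate dehydrogenase gene CYB2 and the supercomplex factor RCF1. The list was drawn up by gene name and complex, with no measured value in its rule though earlier results of these data were known, and all 36 were found by locus tag among the 5895 Saccharomyces cerevisiae protein-coding genes of the files.

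The study asked how cells of a wild-type W303 strain transcribe near freezing. Cultures were kept at 1 °C, 5 °C or 30 °C, and 4-thiouracil (4tU, 5 mM), a uracil analog that enters new RNA, was then added so that mRNA made after that moment could be purified and sequenced (4tU-seq). By the methods section the strain is haploid, of mating type a, and carries ade2-1, can1-100, his3-11_15, leu2-3_112, trp1Δ2 and ura3-1, and these alleles were shared by every group. The medium held glucose, and the series' design gives 2 weeks of incubation before labelling, without saying whether this also holds at 30 °C. The growth state of the 30 °C cultures is not given, and its part in the comparisons with 30 °C was not tested. The 1 °C and 5 °C cultures were each run without added glutathione (GSH, an antioxidant peptide) and with 250 µM GSH, and the 30 °C cultures without it. Labelled mRNA was taken at 6, 12, 24, 48 and 96 h at 1 °C, at 1.5, 3, 6, 12, 24, 48 and 96 h at 5 °C, and at 5, 10 and 20 min at 30 °C, each beside a 0 h sample, and an unselected steady-state library accompanies each replicate. Each group has 3 replicates, called biological in the series' design, apart from 3 h and 12 h at 5 °C with GSH, with 2 here. For its experiments as a whole the study describes replicates as separate colonies grown on different days, but no label ties a library here to a colony or a day, so p-values measure the spread between these samples. Unless GSH is named, a group below is the one without it.

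In respiration, the NADH dehydrogenases pass electrons from NADH to ubiquinone, complex III passes them on to cytochrome c, complex IV hands them to oxygen, and ATP synthase uses the proton gradient this builds. Budding yeast has no proton-pumping complex I. Instead, Ndi1 oxidises NADH inside the mitochondrion, while Nde1 and Nde2 face the intermembrane space and oxidise NADH from the cytosol. Glucose represses many of these genes, and the Hap2/3/4/5 complex, which binds CCAAT boxes and whose Hap4 subunit is itself held low on glucose, activates many of them.

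A longer form of that box, TNATTGGT (N is any base), was searched on both strands of the 500 bases before each start codon in the R64 genome. It was held by 18 of the 36 genes (50%), beside 509 of 5874 nuclear protein-coding genes (8.67%). Every TNATTGGT contains a CCAAT box on the other strand, and the box alone was in 33 of the 36 (91.7%) and in 63% of all genes. The windows below show the match in 1 gene of each complex, in the internal and an external NADH dehydrogenase and in CYB2. They are written on the gene's own strand, with the match in capitals, reversed and complemented where it lies on the opposite strand.
QCR7, chrIV:1496713-1496740, minus strand: tcttgttttgACCAATCAggagcgacgc
COX6, chrVIII:209478-209505, plus strand: aaaagggaccTAATTGGTccggtcaaag
ATP4, chrXVI:408917-408944, minus strand: tcaatattgaACCAATCAcgacgctttt
NDI1, chrXIII:30018-30045, minus strand: attcattcggACCAATCAtatgaaggca
NDE1, chrXIII:556561-556588, minus strand: attctggtaaACCAATTAaagagagaaa
CYB2, chrXIII:167480-167507, minus strand: ctacgacccgACCAATAAtaatgtcata
The far end of the match lies 182 bases before the start codon of QCR7, 217 before that of COX6, 190 before that of ATP4, 228 before that of NDI1, 103 before that of NDE1 and 189 before that of CYB2. NDE2, RCF1, QCR10 and COX9 hold no such match in this window, and neither do QCR6, CYT1, COX4, ATP1 and ATP2. A match is a stretch of letters and no measured binding site. A Puf3-type element, TGTANATA, searched on the sense strand of the 250 bases after each stop codon, was in 7 of the 36 genes (19.4%) and in 15.5% of 5875.

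Steady-state libraries held between 7791032 and 32634257 estimated reads on S. cerevisiae mRNA, labelled cold libraries after 0 h between 8267811 and 47877835 and labelled 30 °C libraries after 0 h between 18937 and 24823193. With the 0 h libraries included, the lowest were 393568 in the cold and 8368 at 30 °C. None of 107 replicate pairs was identical. RNA pulled down at 0 h, before label, amounted to between 0.165% and 1.39% of the 48 h amount for the 36 genes in the 12 cold series, relative to spiked-in RNA of the fission yeast Schizosaccharomyces pombe. The 36 transcripts are short, with a median coding length of 445.5 bases against 1185 for all genes, and 12 of them are under 300 bases. Levels below are in TPM, an abundance corrected for transcript length, rescaled here so that the nuclear mRNA of each library sums to 1000000 TPM. On this scale 5 genes of mating type a summed to between 1846 and 4174 TPM in steady-state libraries and 4 alpha genes to between 9.19 and 223. Log2 fold changes come instead from edgeR with TMM scaling, which sets the typical gene to no change, and a gene is said to have passed the test where its Benjamini-Hochberg adjusted p over all genes was under 0.05. These are bulk samples, so fewer cells and less RNA per cell cannot be told apart.

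At 1 °C the steady-state mRNAs of the chain and of ATP synthase were lower than at 30 °C relative to the typical gene, though not with S. pombe reads as library size. Of the 36 genes, 32 fell and 4 rose, with a median log2 fold change of -1.36, while 36.2% of the 5714 genes tested fell and 37.0% rose, with a median of 0.03. This direction belongs to the comparison with the typical gene: with library sizes from summed mRNA reads the median of all genes was 0.67 and that of the 36 was -0.73 (29 lower, 4 higher), and with library sizes from S. pombe reads the median of all genes was 2.29 and that of the 36 was 0.89 (0 lower, 27 higher). In each of these scalings the median of the 36 genes lay below that of all genes. The labels do not say whether S. pombe material was added to the steady-state samples per cell, per volume or per mass of RNA. What the scaling by its reads refers to there is thus not known. Folds in the following paragraphs are relative to the typical gene. By level in TPM, 23 of the 36 had all 3 libraries at 1 °C below all 3 at 30 °C, 4 (QCR10, COX9, NDE2 and RCF1) had all 3 above, and 9 overlapped, while 11.0% of all genes lay wholly below and 66.2% wholly above.

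Together the 36 genes held 2.14%, 2.58% and 2.24% of nuclear mRNA in the 30 °C libraries and 1.67%, 1.77% and 1.71% in the 1 °C libraries. The means were 2.32% ± 0.234 (SD, n = 3) and 1.72% ± 0.0539, and no library overlapped. At 5 °C the share was 2.22% ± 0.102, and its libraries, at 2.1%, 2.27% and 2.28%, overlapped those at 30 °C. Complex III held 0.624% ± 0.0723 at 30 °C, 0.63% ± 0.0438 at 5 °C and 0.465% ± 0.0269 at 1 °C. Complex IV held 0.677% ± 0.0806, 0.64% ± 0.04 and 0.49% ± 0.0193 in the same order. ATP synthase held 0.928% ± 0.0931, 0.86% ± 0.0327 and 0.678% ± 0.0383. The NADH dehydrogenases held 0.0711% ± 0.012, 0.0643% ± 0.00182 and 0.0362% ± 0.000685. In these TPM shares all 4 means differed more between 5 °C and 1 °C than between 30 °C and 5 °C, but the size of each step depended on the divisor. As a share of reads complex III stepped from 0.269% through 0.188% to 0.142%, and over all S. cerevisiae transcripts ATP synthase stepped from 0.472% through 0.364% to 0.353%, both with the larger step between 30 °C and 5 °C.

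**Figure D1:**
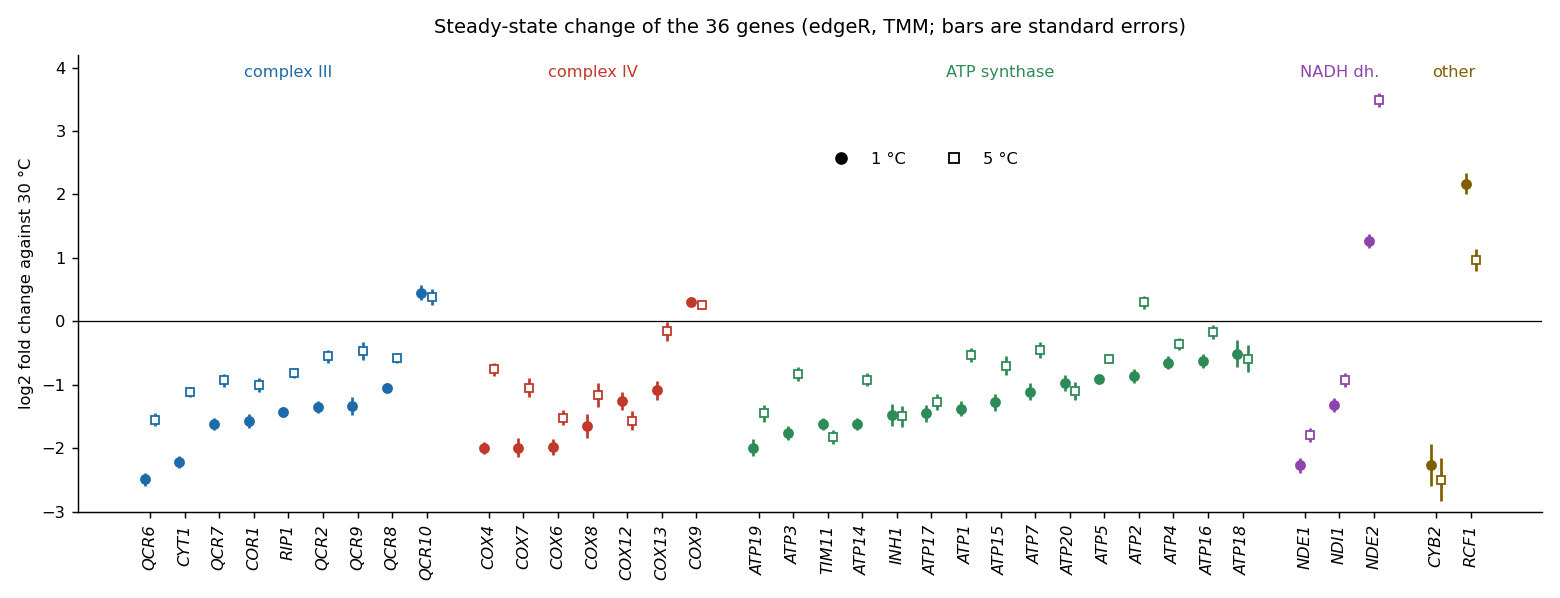
Log2 fold change in steady-state mRNA of each of the 36 genes at 1 °C (filled circles) and 5 °C (open squares) against 30 °C, by complex, from edgeR with TMM scaling; bars are standard errors. Most genes lie below 0 and lower at 1 °C than at 5 °C, while NDE2, RCF1, QCR10 and COX9 lie above 0 at both; with library sizes from S. pombe reads the median at 1 °C was 0.89, above 0.

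Complex III, the cytochrome bc1 complex, fell in 8 of its 9 genes, with a median log2 fold change of -1.43. QCR6, which encodes the acidic subunit, stood at 522, 661 and 722 TPM at 30 °C and at 192, 174 and 202 at 1 °C. No library overlapped, and the log2 fold change was -2.49 ± 0.10 (SE; adjusted p = 5.3e-11, edgeR). CYT1, for cytochrome c1, fell by 2.22 on the log2 scale, the core protein genes COR1 and QCR2 by 1.57 and 1.35, and RIP1, for the Rieske iron-sulfur protein, by 1.43. QCR10, for an accessory subunit, went the other way, from 474, 695 and 537 TPM at 30 °C to 1283, 1356 and 1191 at 1 °C. Its log2 fold change relative to the typical gene was 0.45 ± 0.12 (adjusted p = 0.00421, edgeR). Relative to the typical gene the complex thus had subunit mRNAs moving in opposite directions. With S. pombe reads as library size QCR6 did not pass (log2 fold change -0.22, adjusted p = 0.476, edgeR).

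Complex IV, cytochrome c oxidase, fell in 6 of 7 nuclear genes, with a median log2 fold change of -1.65. COX4, whose product is needed for assembly of the enzyme, stood at 619, 784 and 669 TPM at 30 °C and 288, 271 and 316 at 1 °C, below every 30 °C library, with a log2 fold change of -2.00 ± 0.10 (adjusted p = 2.3e-10, edgeR). COX6 and COX7, both structural subunits, fell by 1.98 and 1.99 on the log2 scale. COX9, a small membrane subunit, went from 746, 783 and 841 TPM to 1663, 1519 and 1629. It lay wholly above the 30 °C libraries, with a log2 fold change of 0.31 ± 0.07 (adjusted p = 0.000951, edgeR). COX13, a peripheral subunit, stood at 1174, 1263 and 853 TPM at 30 °C and at 784, 912 and 918 at 1 °C, so that its levels overlapped although its log2 fold change relative to the typical gene was -1.09 ± 0.15 (adjusted p = 8.55e-06, edgeR).

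All 15 genes of ATP synthase fell relative to the typical gene, with a median log2 fold change of -1.28. ATP19, for a small subunit of the membrane part, was at 644, 664 and 674 TPM at 30 °C and at 231, 331 and 255 at 1 °C (log2 fold change -1.99 ± 0.13, adjusted p = 4.79e-09, edgeR). ATP1, for the alpha subunit of the catalytic head, was at 514, 661 and 529 TPM and fell to 361, 354 and 410, while ATP2, for the catalytic beta subunit, was at 507, 661 and 509 and then at 505, 532 and 543. The first pair of groups did not overlap and the second did. Log2 fold changes relative to the typical gene were -1.38 ± 0.12 for ATP1 and -0.87 ± 0.11 for ATP2 (adjusted p = 6.04e-08 and 3.04e-06, edgeR). INH1, whose protein blocks ATP hydrolysis by the enzyme, stood at 901, 977 and 716 TPM at 30 °C and at 454, 666 and 428 at 1 °C, with no overlap and a log2 fold change of -1.48 ± 0.17. The dimer subunit genes differed: TIM11 (subunit e) fell by 1.62 and ATP20 (subunit g) by 0.97 on the log2 scale, and ATP20 overlapped between 345 to 494 TPM at 1 °C and 450 to 489 at 30 °C. ATP18, a short subunit gene, had the smallest fall, -0.51 ± 0.21 (adjusted p = 0.037, edgeR), which was lost without replicate 1 or 3 at 1 °C (-0.35, adjusted p = 0.154, and -0.38, adjusted p = 0.142) and without replicate 2 or 3 at 30 °C (-0.46, adjusted p = 0.0939, and -0.44, adjusted p = 0.0858). Its log2 value also turned to 0.13 with summed mRNA reads as library size and to 0.07 with the trend over coding length removed. In TPM ATP18 overlapped, between 411 and 636 at 30 °C (mean 548) and between 498 and 861 at 1 °C (mean 624).

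**Figure D2:**
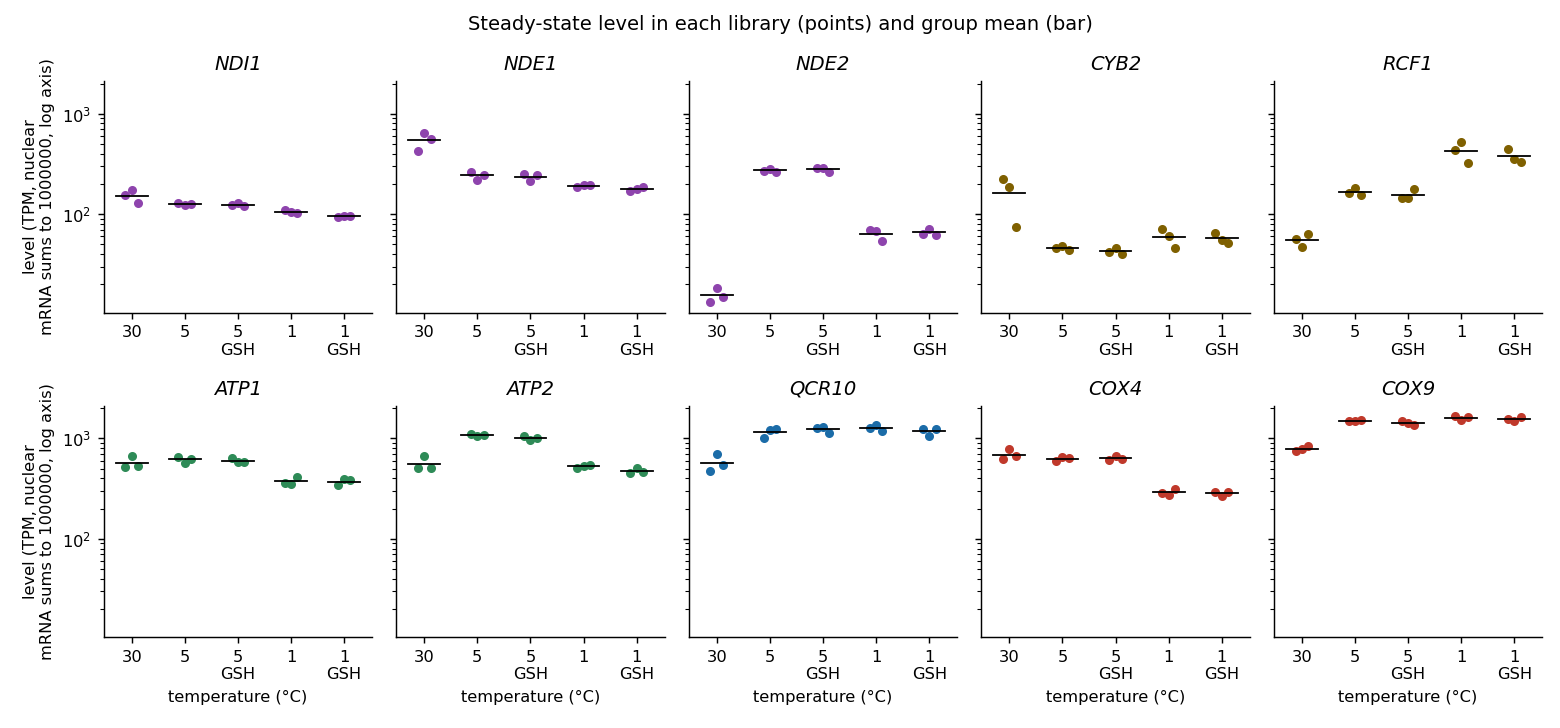
Steady-state level (TPM, nuclear mRNA rescaled to 1000000, log axis) of 10 of the genes in each library at 30 °C, 5 °C and 1 °C, with and without added GSH; points are libraries and the line is the group mean. NDE2 is lowest at 30 °C and highest at 5 °C, RCF1 is highest at 1 °C, and the groups with and without GSH lie side by side.

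Relative to the typical gene, the external NADH dehydrogenases moved in opposite directions in the cold. With S. pombe reads as library size NDE1 did not pass at 1 °C against 30 °C (log2 fold change -0.01, adjusted p = 0.981, edgeR). NDE1, the more abundant of the pair at 30 °C, stood at 423, 640 and 563 TPM there, at 262, 221 and 248 at 5 °C and at 187, 193 and 197 at 1 °C. NDE2 stood at 13.3, 18.5 and 14.9 TPM at 30 °C, at 272, 284 and 261 at 5 °C and at 69.7, 68.1 and 53.9 at 1 °C. NDE2 thus lay wholly above its 30 °C level at both cold temperatures, and its 5 °C level was the highest. Its log2 fold change was 3.49 ± 0.11 at 5 °C (adjusted p = 5.4e-12) and 1.26 ± 0.11 at 1 °C (adjusted p = 6.28e-08, edgeR), against -1.79 ± 0.11 and -2.27 ± 0.12 for NDE1. Of the summed level of both genes, NDE2 held 3.05%, 2.81% and 2.58% at 30 °C, 51%, 56.2% and 51.3% at 5 °C and 27.1%, 26.1% and 21.5% at 1 °C. This share is a ratio of 2 genes in the same library, and library scaling leaves it as it is. With GSH it was 54.2% ± 2.83 (SD, n = 3) at 5 °C and 26.9% ± 1.65 at 1 °C. The coding sequences of NDE1 and NDE2 agree at 65.0% of 1444 aligned bases. NDI1, for the internal dehydrogenase, stood at 156, 174 and 129 TPM at 30 °C, 130, 124 and 125 at 5 °C and 110, 105 and 103 at 1 °C, and its log2 fold changes were -0.93 ± 0.11 and -1.32 ± 0.11 (adjusted p = 1.33e-06 and 3.47e-08, edgeR).

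CYB2, for the mitochondrial L-lactate dehydrogenase that feeds electrons to cytochrome c, was spread widely at 30 °C, at 222, 187 and 74.9 TPM, and stood at 45.6, 47.9 and 43.7 at 5 °C and at 70.4, 60.9 and 45.9 at 1 °C. It was lower than every 30 °C library at both temperatures (log2 fold change -2.50 ± 0.34 and -2.27 ± 0.33, adjusted p = 1.98e-05 and 4.12e-05, edgeR). RCF1, whose product helps to join complexes III and IV into supercomplexes, rose with each step of cooling, from 56.3, 46.9 and 63.1 TPM at 30 °C to 164, 183 and 156 at 5 °C and 432, 522 and 323 at 1 °C. Its 3 groups did not overlap. The log2 fold change was 0.97 ± 0.17 at 5 °C and 2.17 ± 0.16 at 1 °C (adjusted p = 8.91e-05 and 2.15e-08, edgeR).

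At 5 °C, 29 of the 36 genes fell and 5 rose against the same 30 °C libraries, with a median log2 fold change of -0.82, while 37.7% of the genes tested fell and 36.5% rose. The medians were -0.81 for complex III, -1.05 for complex IV, -0.70 for ATP synthase and -0.93 for the NADH dehydrogenases. Levels in TPM were wholly lower at 5 °C in 15 of the 36 and wholly higher in 8, against 15.6% and 60.4% of all genes. With summed mRNA reads as library size the median of the 36 was -0.51 (24 lower, 5 higher), against 0.29 for all genes, and with S. pombe reads it was 0.13 (3 lower, 7 higher), against 0.92. The 5 that rose were NDE2, RCF1, QCR10, COX9 and ATP2. ATP2 stood at 1105, 1059 and 1069 TPM at 5 °C, above every library at 30 °C and 1 °C, and ATP1 at 656, 569 and 625. Relative to the typical gene ATP2 rose by 0.30 ± 0.10 on the log2 scale (adjusted p = 0.0174) and ATP1 fell, at -0.53 ± 0.11 (adjusted p = 0.000725, edgeR). With summed mRNA reads as library size ATP1 did not pass (-0.21, adjusted p = 0.0646, edgeR). Without replicate 3 at 30 °C the rise of ATP2 was 0.19 (adjusted p = 0.073) and that of QCR10 0.29 (adjusted p = 0.0517), which left 3 genes higher. QCR10 also missed the threshold without replicate 2 or 3 at 5 °C (0.33 and 0.32, adjusted p = 0.0519 and 0.0558).

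Between the cold temperatures, 26 of the 36 genes were lower at 1 °C than at 5 °C and 1 was higher, with a median log2 fold change of -0.52, while 28.6% of the genes tested were lower and 29.9% higher. RCF1 was the one that was higher, by 1.20 ± 0.16 on the log2 scale (adjusted p = 1.78e-05, edgeR), and NDE2 had the largest difference the other way, -2.23 ± 0.11 (adjusted p = 1.28e-09). ATP2 differed by -1.17 ± 0.11, ATP1 by -0.85 ± 0.12, NDE1 by -0.48 ± 0.11 and NDI1 by -0.39 ± 0.11. With summed mRNA reads as library size NDE1 (-0.16, adjusted p = 0.196) and NDI1 (-0.07, adjusted p = 0.532, edgeR) did not pass. By level in TPM 25 of the 36 lay wholly lower at 1 °C and 3 (COX12, TIM11 and RCF1) wholly higher, against 25.0% and 43.5% of all genes. The count is set by the scale: with summed mRNA reads 16 were lower and 6 higher (median -0.20, all genes 0.36), and with S. pombe reads 1 was lower and 24 higher (median 0.79, all genes 1.36). With GSH in both cultures, 24 were lower and 2 higher (median -0.48), against 28.9% and 29.7% of the genes tested.

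Added GSH did not move any of the 36 genes past the threshold in steady state. At 1 °C, 0 of 36 passed in edgeR and 0 in DESeq2 (2 at an unadjusted p under 0.05), as did 0.0% of the 5714 genes tested. At 5 °C, 0 passed in either tool (0 at an unadjusted p under 0.05), again against 0.0%. The share of nuclear mRNA held by the 36 genes was 1.67% ± 0.0477 (SD, n = 3) at 1 °C with GSH and 2.22% ± 0.0241 at 5 °C with GSH, next to 1.72% and 2.22% without it. The difference between 1 °C and 5 °C did not depend on GSH in any of the 36 by the test of that interaction in edgeR or DESeq2 (0 of 36 at an unadjusted p under 0.05, 0.0% of all genes called), which leaves smaller differences undetected.

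Genes that work on the same complexes without being among the 36 did not move with them in every list. The 15 other nuclear subunits and carriers gave 8 lower and 3 higher at 1 °C against 30 °C, with a median log2 fold change of -0.69. Over all genes tested 36.2% were lower and 37.0% higher. CYC1, for the main cytochrome c, had the largest fall, from 2052, 1975 and 1125 TPM at 30 °C to 76.3, 65.1 and 65.4 (-5.40 ± 0.26), and CYC7, for the minor form, went from 361, 249 and 203 to 138, 107 and 92.6 (-2.03 ± 0.23). At 5 °C CYC7 was at 436, 441 and 371 TPM, the highest of the 3 temperatures. COX5A and COX5B encode alternative forms of one complex IV subunit, of which the second is known as the form of low oxygen. COX5A fell at 1 °C (-0.97 ± 0.12), and COX5B stood at 282, 239 and 225 TPM at 30 °C and at 380, 435 and 360 at 1 °C, with a log2 fold change of -0.11 ± 0.11 that did not pass the test. STF2, for a factor that stabilises the ATPase inhibitor, had the largest rise of the list (1.21).

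Of the genes carried on mitochondrial DNA, 6 of 7 could be tested and 5 fell, with a median of -1.59. COX2 fell by 2.67, COB by 1.85, OLI1 by 1.62, COX1 by 1.55 and COX3 by 1.01 on the log2 scale, and ATP6 gave 0.50 ± 1.13, with replicate 2 of both cold groups far from the other replicates. By contrast, among 24 genes for the assembly of complex IV 14 rose and 5 fell (median 0.39). SCO2, for a protein linked to copper delivery, stood at 28.5, 31 and 31 TPM at 30 °C and 382, 376 and 364 at 1 °C, the largest rise of this list (log2 fold change 2.86), and COA2, an assembly factor, had the largest fall (-2.11). Among 15 genes for the expression of mitochondrial genes of these complexes, 11 rose and 1 fell (median 0.64), from PET122, a translational activator of COX3 (1.20), to AEP2, needed for expression of OLI1 (-0.73). For assembly of complex III the count was 4 higher and 1 lower of 7, from MZM1 (0.82), a chaperone of Rip1, to CBP6 (-0.48), and for assembly of ATP synthase 3 and 3 of 9, from ATP23 (0.86), a protease that processes Atp6, to ATP10 (-0.73). Of 14 regulators 4 rose and 5 fell (median -0.17). HAP4, the activating subunit of the CCAAT-binding complex, had the largest fall, from 162, 182 and 179 TPM at 30 °C to 151, 139 and 149 at 5 °C and 32.7, 45.2 and 35.5 at 1 °C. Its log2 fold change was -0.90 ± 0.11 at 5 °C and -2.99 ± 0.12 at 1 °C, and HAP5, of the same complex, had the largest rise (0.67). These lists were compared by counts and medians only. Over all genes tested 37.0% rose and 36.2% fell, and the counts for regulators and for assembly of ATP synthase lay near these shares.

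**Figure D3:**
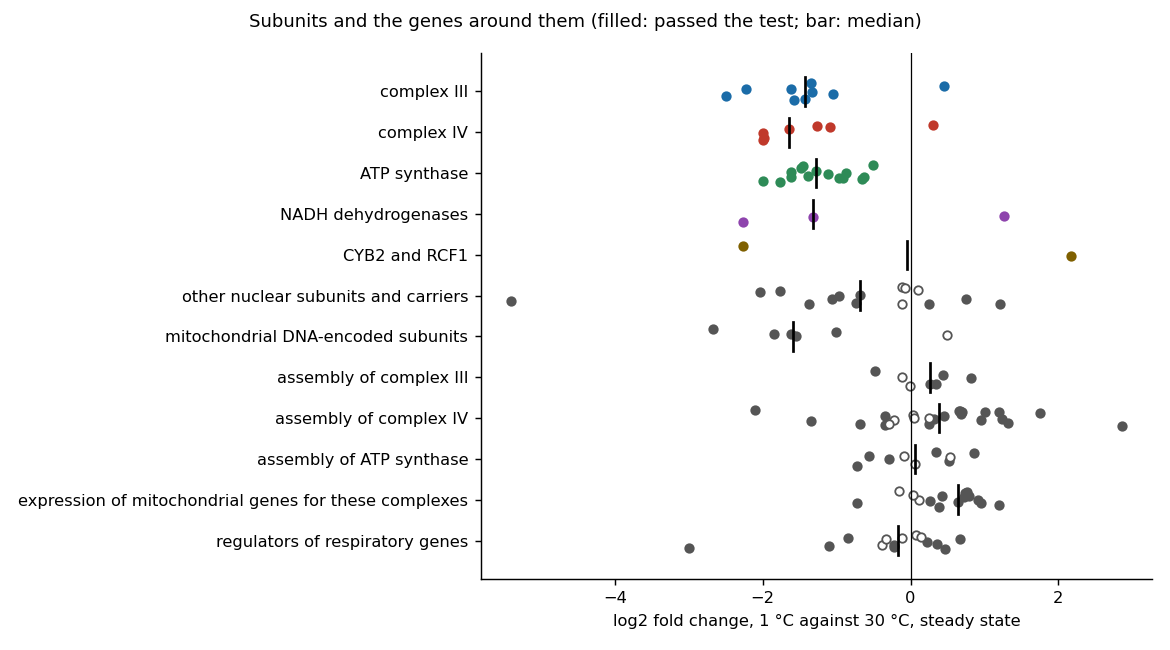
Log2 fold change in steady-state mRNA at 1 °C against 30 °C (edgeR, TMM) for the 36 genes, in colour, and for related lists, in grey; filled points passed the test and the bar is the median. Complexes III and IV, ATP synthase and the mitochondrial DNA-encoded subunits have medians between -1.65 and -1.28, and the lists for assembly of complex IV and for expression of mitochondrial genes have medians of 0.39 and 0.64; with library sizes from S. pombe reads the 36 genes as a whole had a median of 0.89.

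Genes with a TNATTGGT match lay somewhat lower than those without it at 1 °C against 30 °C: the median log2 fold change was -1.60 in the 18 with a match, between -2.27 and -0.65, and -1.01 in the 18 without it, between -2.49 and 2.17. The ranges overlap. At 5 °C the medians were -0.97 and -0.56, and between 1 °C and 5 °C they were -0.52 and -0.64, in the opposite order. No test was run on this division.

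Newly made mRNA showed the 36 genes rising within the labelled pool over hours to days. At 5 °C, all 36 rose between 1.5 h and 48 h of labelling, with a median log2 fold change of 1.88, while 32.1% of the 5816 genes tested rose and 30.7% fell. All 36 had their 3 TPM levels at 48 h above all 3 at 1.5 h, as did 26.0% of all genes, while 46.8% of all genes lay wholly below. At 1 °C, 33 rose and 0 fell between 6 h and 48 h (median 1.12), against 25.3% and 24.8% of the genes tested, and in TPM 26 of the 36 lay wholly above and 0 wholly below, against 12.8% and 41.9% of all genes. With GSH the counts were 36 and 0 at 5 °C (median 1.96, against 32.6% and 30.9% of the genes tested) and 32 and 0 at 1 °C (median 1.36, against 26.7% and 25.9%). From 6 h to 48 h at 5 °C, 26 rose and 0 fell without GSH and 29 rose and 0 fell with it, against 18.3% and 15.6%, and 17.6% and 16.3%, of the genes tested. Without GSH no gene of the 36 fell with summed mRNA reads or with S. pombe reads as library size either, and with the latter all 36 rose at both temperatures. On that last scale even NDI1 and NDE1, which did not pass at 1 °C with TMM, had log2 folds of 1.68 and 1.77. The share of all genes that rose on it is not given here, so this count does not set the 36 apart.

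The share of labelled nuclear mRNA held by the 36 genes at 5 °C rose from 0.717% ± 0.0808 (SD, n = 3) after 1.5 h to 1.39% ± 0.0717 after 6 h and 2.12% ± 0.131 after 48 h, and ended with 2.31% ± 0.106 after 96 h, beside 2.22% in steady state. At 1 °C it went from 0.96% ± 0.189 after 6 h through 1.17% ± 0.103 (12 h) and 1.53% ± 0.0472 (24 h) to 1.75% ± 0.0812 after 48 h, with 1.86% ± 0.158 after 96 h, beside 1.72% in steady state. At both temperatures the 48 h and steady-state ranges overlapped. From 48 h to 96 h, 0 of the 36 passed the test at either temperature with or without GSH, in edgeR or DESeq2, with 0 to 2 of them at an unadjusted p under 0.05. Over all genes 0.0688% passed at 1 °C, with and without GSH, and 0.0344% without and 0.172% with GSH at 5 °C.

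**Figure D4:**
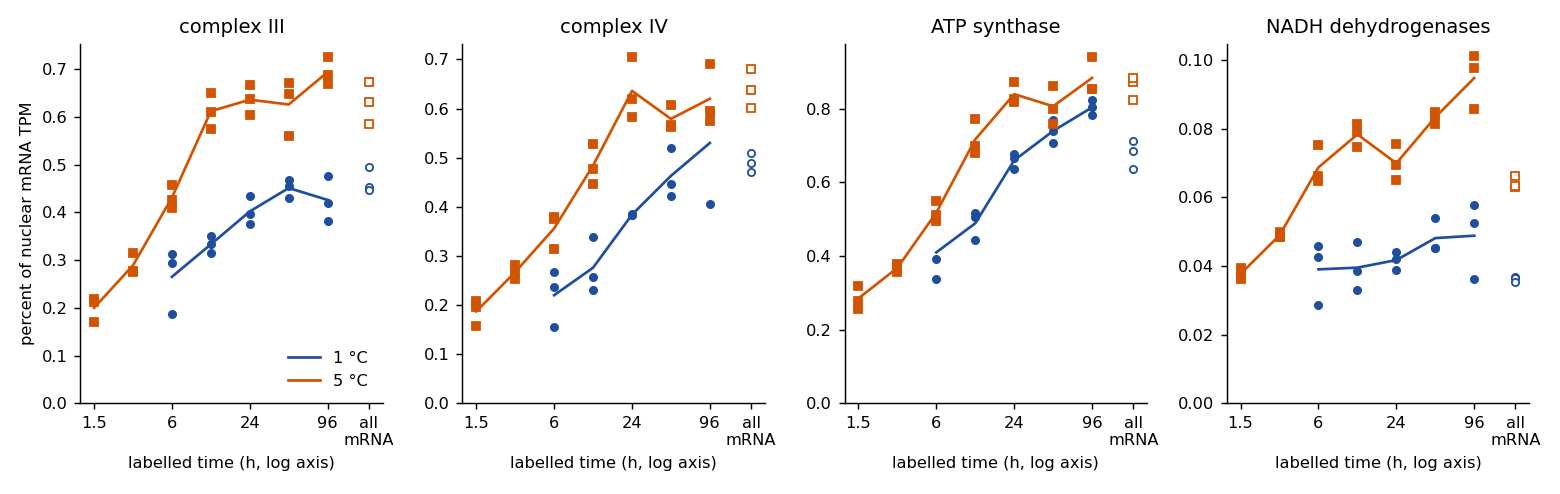
Share of labelled nuclear mRNA (percent of TPM) held by complex III, complex IV, ATP synthase and the NADH dehydrogenases against labelled time (log axis) at 1 °C (circles) and 5 °C (squares), without added GSH; points are libraries, lines join means and open symbols show steady-state mRNA. At 5 °C the shares of complex III, complex IV and ATP synthase at 48 h lay near their steady-state shares. The NADH dehydrogenases lay above theirs at 48 h and at 96 h.

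The rise was shared by all complexes at 5 °C, with medians of 1.87 for complex III (9 of 9 rose), 1.98 for complex IV (7 of 7), 1.72 for ATP synthase (15 of 15) and 1.62 for the NADH dehydrogenases (3 of 3). QCR10 had the largest fold, from 194, 123 and 106 TPM at 1.5 h to 952, 861 and 996 at 48 h (3.05 ± 0.37, adjusted p = 5.01e-10, edgeR). INH1 followed, from 84.9, 68.2 and 45.3 to 380, 364 and 495 (2.95 ± 0.27, adjusted p = 3.68e-14). Within complex IV, COX13 rose from 322, 307 and 249 to 1497, 1294 and 1533 (2.62 ± 0.24) and COX9 from 633, 816 and 562 to 1404, 1361 and 1637 (1.46 ± 0.29), the largest and the smallest fold of its genes. These groups did not overlap for any of the 4 genes.

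The smallest fold in complex III was that of QCR9, for a short subunit whose gene has an intron, from 821, 687 and 401 TPM to 1656, 1282 and 1491 (1.54 ± 0.27). In ATP synthase it was that of ATP20, which gave 335, 218 and 187 after 1.5 h, then 424, 381 and 380 after 6 h and finally 353, 348 and 342 after 48 h. Over all labelled times at 5 °C, ATP20 had its highest mean level at 24 h, 435 TPM, with 418 after 12 h and 371 after 96 h. Its fold from 1.5 h to 48 h was 0.82 ± 0.27 (adjusted p = 0.00802, edgeR), and the call was lost without replicate 2 (0.71, adjusted p = 0.081) or replicate 3 (0.65, adjusted p = 0.105). ATP2 rose from 176, 199 and 245 TPM to 859, 929 and 880 (2.43 ± 0.19) and ATP1 from 307, 249 and 327 to 571, 645 and 585 (1.35 ± 0.20). At 1.5 h ATP1 thus had the higher level of the pair and at 48 h ATP2 did, with no overlap at either time.

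At 1 °C the folds from 6 h to 48 h had medians of 1.01 for complex III (9 of 9 rose), 1.54 for complex IV (7 of 7), 1.11 for ATP synthase (14 of 15) and 0.37 for the NADH dehydrogenases (1 of 3). ATP16, for the delta subunit of the rotor stalk, had the largest fold, from 181, 126 and 85.9 TPM to 425, 449 and 410 (2.08 ± 0.22, adjusted p = 1.14e-10, edgeR), and ATP17, for subunit f, did not pass (0.86 ± 0.38, adjusted p = 0.056). COX4 rose from 122, 81 and 34.6 to 191, 254 and 199 (1.83 ± 0.32). NDI1 stood at 109, 176 and 173 at 6 h and at 132, 176 and 124 at 48 h (0.26 ± 0.16, adjusted p = 0.188), and NDE1 at 138, 197 and 230 and then at 185, 218 and 177 (0.37 ± 0.16, adjusted p = 0.0576). Without replicate 3 both passed, at 0.51 (adjusted p = 0.0369) and 0.66 (adjusted p = 0.00643). Without that same replicate CYB2 (0.23, adjusted p = 0.233), QCR9 (0.57, adjusted p = 0.0813) and ATP18 (0.99, adjusted p = 0.0541) lost their calls, and ATP18 also did so without replicate 1 (0.67, adjusted p = 0.154). RCF1 rose from 267, 198 and 197 to 472, 428 and 460 (1.39 ± 0.19).

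Short transcripts as a class rose in these comparisons, and the 36 genes are short. Over all 5816 genes the log2 fold change ran with coding length at Spearman's rho of -0.51 at 1 °C and -0.32 at 5 °C, a description across genes that share libraries. Shorter transcripts also hold fewer uracils that 4tU could replace, with a median of 105 in the 36 genes (from 41 in COX9 to 505 in ATP1) against 323 in all. After the trend with coding length was removed, the median of the 36 was 0.68 in place of 1.12 at 1 °C and 1.44 in place of 1.88 at 5 °C. In steady state, at 1 °C against 30 °C, rho was 0.09 and the median changed from -1.36 to -1.10. The part of length in the fold of any one gene was not tested.

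**Figure D5:**
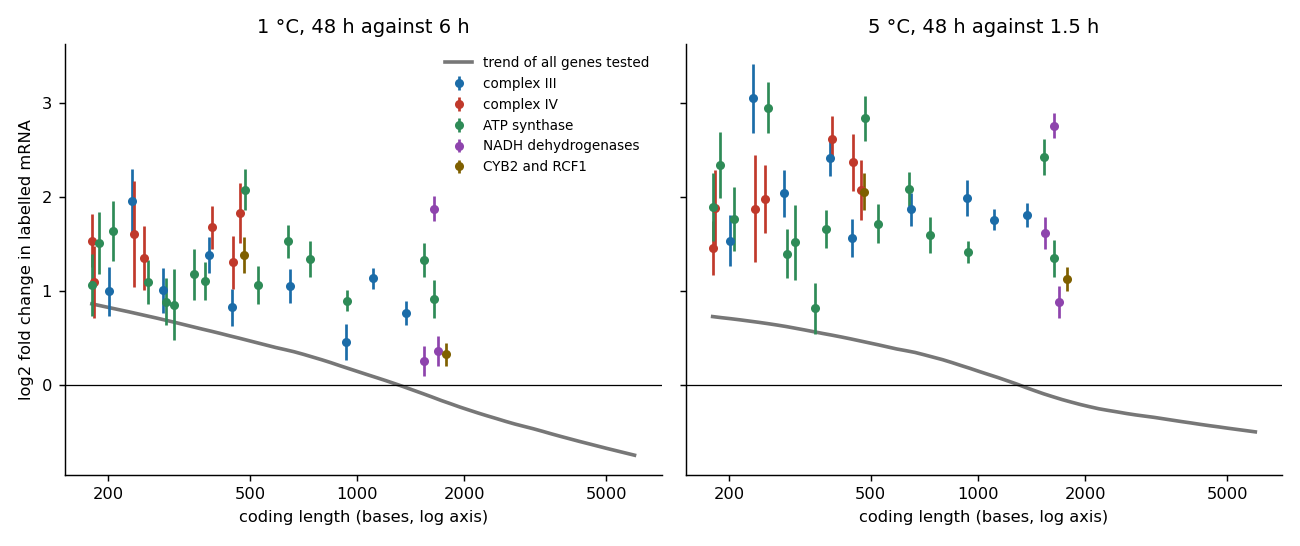
Log2 fold change in labelled mRNA of the 36 genes (points, with standard errors, edgeR) against coding length (log axis), at 1 °C from 6 h to 48 h and at 5 °C from 1.5 h to 48 h; the grey line is the trend of all genes tested. The trend falls with length, all 36 genes lie above it at both temperatures, and NDE2 stands far above it among the long genes.

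NDE2 had the largest labelled fold of the long genes among the 36. At 5 °C its level was 50, 58.7 and 50.2 TPM after 1.5 h, 239, 217 and 193 after 6 h and 292, 269 and 308 after 48 h, and its log2 fold change from 1.5 h to 48 h was 2.76 ± 0.13 (adjusted p = 5.69e-25, edgeR). At 1 °C it was 38.4, 53.2 and 55.4 after 6 h and 135, 146 and 150 after 48 h (1.88 ± 0.13, adjusted p = 2.25e-17). Most of the rise in level at 5 °C came before 6 h, and at 1 °C, where 6 h was the first labelled time, the level still rose after it. NDE1 rose less at 5 °C, from 277, 232 and 271 to 372, 418 and 366 (0.89 ± 0.17). The share of NDE2 in the labelled mRNA of both genes was 17% ± 2.75 (SD, n = 3) after 1.5 h, 37.3% ± 2.68 after 6 h and 42.9% ± 3.37 after 48 h at 5 °C. At 1 °C it was 20.8% ± 1.24 after 6 h, 42.7% ± 3.01 after 48 h and 39.8% ± 4.34 after 96 h. At 5 °C the labelled share at 48 h lay below the steady-state share of 52.8% ± 2.95, and at 1 °C it lay above the steady-state share of 24.9% ± 3.01, with no overlap in either case. At 30 °C it was 1.76% ± 0.25 after 20 min.

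Whether the rise from 6 h to 48 h differed between 1 °C and 5 °C was tested as an interaction. Without GSH, 3 of the 36 genes passed, 1 with the larger rise at 5 °C and 2 with the smaller, while 10.2% and 8.01% of all genes did so. They were CYB2 (0.63 ± 0.18, adjusted p = 0.00947), NDE2 (-1.24 ± 0.17, adjusted p = 1.97e-06) and ATP20 (-1.12 ± 0.38, adjusted p = 0.0331, edgeR). CYB2 stood at 28.8, 26.4 and 30.1 TPM at 6 h and 47.1, 46.3 and 49.2 at 48 h at 5 °C, with no overlap, and at 49.3, 59.1 and 40.4 and then 44.3, 52.5 and 50.8 at 1 °C, with overlap. With GSH, 7 passed, 2 with the larger rise at 5 °C and 5 with the smaller, against 13.4% and 13.4% of all genes. NDE2 was the only gene of the 36 called in both, at -1.56 ± 0.18 with GSH (adjusted p = 1.04e-08). With S. pombe reads as library size 0 of the 36 passed with or without GSH. The estimate of NDE2 on that scale was -1.86 without GSH and -1.50 with it, and the share of all genes called is not given here. Leaving out 1 replicate changed these small counts: without GSH the larger rise was called in 2 genes without replicate 1 at 1 °C and in 0 without replicate 2 at 5 °C, and the smaller in 1 without replicate 3 at 1 °C or any 1 replicate at 5 °C. With GSH the larger rise was called in 0 without replicate 3 at 1 °C and in 1 without replicate 1 at 1 °C or any 1 replicate at 5 °C, and the smaller in 3 without replicate 2 at 5 °C.

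At the same labelled time most of the 36 genes were lower at 1 °C than at 5 °C relative to the typical gene at 6 h and fewer at 48 h, though not with S. pombe reads as library size. At 6 h, 24 were lower and 3 higher (median -0.83), while 24.8% of all genes were lower and 27.3% higher. The 3 were INH1 (1.17), RCF1 (1.12) and CYB2 (0.48), and NDE2 (-2.45) and COX4 (-2.25) had the largest differences the other way. At 48 h, 15 were lower and 2 higher (median -0.50), against 21.5% and 20.6% of all genes, and the 2 were RCF1 (1.40 ± 0.19) and INH1 (0.69 ± 0.23). INH1 was thus higher at 1 °C in new mRNA, at 549, 336 and 400 TPM at 6 h against 115, 193 and 180 at 5 °C, while its steady-state levels at the cold temperatures overlapped, at 428 to 666 TPM at 1 °C and 453 to 493 at 5 °C. With S. pombe reads as library size 3 were lower and 5 higher at 6 h, and 0 lower and 22 higher at 48 h. The shares of all genes called on that scale are not given here, so these counts do not set the 36 apart. Without replicate 1 at 1 °C, 5 genes were higher at 6 h, and without replicate 3 at 1 °C, 1 was higher at 48 h.

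GSH did not change the labelled course of any of the 36 genes past the threshold. The interaction of GSH with the rise to 48 h was called in 0 of 36 at 1 °C and 0 at 5 °C by edgeR and by DESeq2, with 2 and 0 at an unadjusted p under 0.05, and over all genes 0.0344% and 0.0% passed. Of the related lists, the other nuclear subunits and carriers rose in 13 of 15 at 5 °C (median 2.10), the mitochondrial DNA-encoded subunits in 6 of 6 (1.73) and the assembly genes of complex IV in 18 of 24, with 4 lower (1.05). Genes for the expression of mitochondrial genes gave 2 higher and 7 lower (median -0.33), and regulators 3 and 6 (-0.38). Over all genes tested at 5 °C from 1.5 h to 48 h, 32.1% were higher and 30.7% lower. The extremes among those that passed were STF2 (3.58) in the first list, COA4 (3.10) and COX19 (-1.53), both for assembly of complex IV, PET54 (1.31) and CBP1 (-1.62), which act on COX and COB transcripts, and HAP2 (1.29) and ROX1 (-1.64), the latter a repressor of hypoxic genes. For the assembly genes of complex III the counts were 2 and 2, from CBP4 (1.76) to CBT1 (-0.50), and for those of ATP synthase 2 and 3, from FMC1 (1.44) to NCA3 (-1.43). CYC7 (3.18 ± 0.54), CYC1 (2.58 ± 0.35), COX5B (2.52 ± 0.21) and COX5A (1.42 ± 0.16) rose, and HAP4 gave 0.09 ± 0.27, which did not pass.

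Fitted half-lives of labelled mRNA had higher medians over the 36 genes than over all genes. A constant rate of synthesis and of decay was fitted to each gene's ratio to S. pombe RNA up to 48 h, over the libraries that share a replicate number, called a replicate series here. At 5 °C without GSH the members' median was 9.57, 12.1 and 14.7 h in the 3 series, beside 3.73, 2.1 and 8.1 h over all genes, and no fit of the 36 met a bound. The values depended on the last time used: with 96 h included the members' medians were 13.3, 27.1 and 47.9 h, beside 4.71, 4.34 and 31.3 h over all genes. The following values are those up to 48 h. ATP2 had the longest mean, 23.9 h (17.2, 30.9 and 23.7 h), followed by ATP16 and CYB2 at 21 h each, and ATP20 the shortest, 6.47 h (4.58, 5.74 and 9.08 h). NDE2 was at 15.3 h ± 7.35 (SD, n = 3), NDI1 at 12.8 h ± 2.66 and NDE1 at 8.72 h ± 3.54, with overlapping series. The medians of complex III, complex IV and ATP synthase were 12, 12.7 and 11.6 h, closer to each other than the replicate series of any of them.

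At 1 °C the series disagreed more. The members' medians were 17.1, 43.8 and 18.9 h, beside 7.65, 9.86 and 8.7 h over all genes, and 9 of 108 fits met the upper bound. With GSH they were 79.4, 13.4 and 71.1 h at 1 °C and 960, 45.1 and 11.8 h at 5 °C, where the first is the bound itself, and 27 and 22 fits met it. With 96 h included they were 10.9, 13.9 and 13.4 h at 1 °C without GSH, 17.7, 9.99 and 11.6 h at 1 °C with GSH and 67.8, 35.9 and 26.1 h at 5 °C with GSH. These half-lives were thus not placed closely, although by the mean over series all 36 genes lay above the median of all genes up to 48 h in each group but 5 °C with GSH. There the count depended on the genes behind that median. It was 34 against 23.8 h, the mean of the series medians over 5562 genes. It was 36 against 18.7 h, the median over 4237 genes of their means over series. Length runs with labelled time as described above, and its part in the fitted values was not tested.

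At 30 °C the share of the 36 genes in labelled mRNA was 0.93% ± 0.389 (SD, n = 3) after 5 min and 2.63% ± 0.153 after 20 min, beside 2.32% in steady state. The libraries at 5 min were the shallowest. By edgeR 0 of the 36 passed between 5 and 20 min (14 at an unadjusted p under 0.05), as did 0.0% of 5487 genes, by DESeq2 5 were higher, and without replicate 3 edgeR called 1. Labelled times differ by temperature, so folds at 30 °C and in the cold are not compared.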

How the data were processed

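The 109 libraries (94 of labelled mRNA, 15 of steady-state mRNA) were stranded total RNA libraries made after depletion of ribosomal RNA. The authors quantified each with Salmon against 13700 transcripts of both yeasts, on build R64 by the submitters' processing notes. Deposited estimated counts are Salmon's expected reads per transcript, and the deposited TPM values are abundances corrected for effective length over both species. The length and effective length columns of the deposited files (in bases, no measurement of RNA) served for length checks.

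Estimated counts of S. cerevisiae protein-coding genes were rounded and fitted with edgeR 4.0.16 (quasi-likelihood, TMM, filterByExpr, limma 3.58.1, R 4.3.3), in 1 fit for the steady-state, 1 for the labelled cold and 1 for the labelled 30 °C libraries, with Benjamini-Hochberg adjustment over all genes and a threshold of 0.05. DESeq2 1.42.0, no filter, other library sizes, length and uracil trends, a replicate block and leaving out each replicate were alternatives. Effective lengths as offsets were added after the data were seen. Levels are TPM divided by the sum over 5876 nuclear protein-coding genes. 665 S. cerevisiae transcripts without an annotated protein-coding gene were left out. Half-lives were bounded between 0.1 times the first and 20 times the last labelled time. Python 3.11.15, numpy 2.4.6, pandas 2.3.3 and matplotlib 3.10.9 were used. Each script was tested on simulated data.

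The members and lists were set by gene name and function, with earlier results of these data known. Per-library values are given for NDI1, NDE1, NDE2, CYB2, RCF1, INH1, ATP1 and ATP2, and, in complexes III and IV and ATP synthase, for the highest and lowest log2 fold change at 1 °C against 30 °C and at 5 °C from 1.5 h to 48 h. For ATP18 the range over libraries is given instead. COX5A, COX5B, CYC1, CYC7, HAP4, the mitochondrial DNA-encoded subunits and the extremes of each other list are also named. Others were named after their values were seen. Sequences came from the R64 genome. No label or header gave a sequencing batch.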

Additional observations from a re-analysis of the deposited data

Results flagged for a closer look

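In 10 cases the rise in labelled mRNA from 6 h to 48 h differed between 5 °C and 1 °C by the test of that difference (edgeR interaction, 5 °C minus 1 °C, log2 scale). Without added GSH they were NDE2 (-1.24 ± 0.17 SE, adjusted p = 1.97e-06), ATP20 (-1.12 ± 0.38, adjusted p = 0.0331) and CYB2 (0.63 ± 0.18, adjusted p = 0.00947). With GSH they were NDE2 (-1.56 ± 0.18, adjusted p = 1.04e-08), QCR2 (-0.66 ± 0.15, adjusted p = 0.00119), ATP4 (-1.07 ± 0.27, adjusted p = 0.00225), ATP3 (-0.60 ± 0.16, adjusted p = 0.00428), NDI1 (0.77 ± 0.23, adjusted p = 0.01), QCR6 (0.83 ± 0.28, adjusted p = 0.0234) and COX7 (-1.48 ± 0.54, adjusted p = 0.0358). Over all genes the same test called 10.2% with the larger rise at 5 °C and 8.01% with the smaller without GSH. With GSH these shares were 13.4% and 13.4%. NDE2 was called with and without GSH, and its calls held without any 1 replicate, as did those of QCR2 and ATP4. The calls of ATP20, CYB2, ATP3, NDI1, QCR6 and COX7 were lost without at least 1 replicate, ATP20 in 5 of 6 cases. With S. pombe reads as library size each of the 10 lost its call, but only CYB2 changed sign (-0.07). Without GSH the estimates were then -1.86 for NDE2 (adjusted p = 0.0545, edgeR) and -1.87 for ATP20 (adjusted p = 0.0559). With GSH they were -1.50 for NDE2, -0.56 for QCR2, -1.07 for ATP4, -0.55 for ATP3, 0.87 for NDI1, 0.89 for QCR6 and -1.40 for COX7. The share of all genes called on that scale is not given here.

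NDE2 labelled at 1 °C with GSH stood at 32, 42.5 and 32.9 TPM at 6 h and at 111, 135 and 118 at 48 h, and at 5 °C with GSH at 238, 202 and 240 and then at 354, 279 and 288. The level at 6 h was thus higher at 5 °C in every library, and the fold to 48 h was larger at 1 °C. ATP20 was the one gene of the 36 whose 5 °C levels without GSH were lower at 48 h than at 6 h in every library. Its mean level there was highest at 24 h, at 435 TPM.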

How the results depend on the processing

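Counts of the 36 genes called were the same within 1.5 times with no filter, with nuclear genes only, with effective lengths as offsets and, outside the 30 °C labelled comparison (5 higher), with DESeq2. Library sizes from S. pombe reads changed most: at 1 °C against 30 °C 27 genes were higher and 0 lower, at 5 °C against 30 °C 3 were lower, at 1 °C against 5 °C 24 were higher and 1 lower without GSH and 22 and 1 with it, in labelled mRNA at 1 °C against 5 °C 5 and 3 at 6 h and 22 and 0 at 48 h, and the temperature interactions gave 0 and 0 with and without GSH. Under these sizes log2 folds at 1 °C against 30 °C turned for NDI1 (0.97), CYB2 (0.07), INH1 (0.75), ATP1 (0.90), ATP2 (1.40), QCR9 (0.88), COX4 (0.28), COX13 (1.18), ATP18 (1.67), ATP19 (0.22) and ATP20 (1.26), at 5 °C against 30 °C for NDI1 (0.03) and ATP1 (0.42), at 1 °C against 5 °C for NDI1 (0.94), NDE1 (0.85), ATP1 (0.48) and ATP2 (0.15), and for the interaction of CYB2 (-0.07). At 1 °C against 30 °C NDE1 (-0.01) and QCR6 (-0.22) kept their sign under these sizes but no longer passed. Shares of all genes called under these sizes are not given here. With summed mRNA reads 6 were higher and 16 lower at 1 °C against 5 °C without GSH, 4 higher with it and 5 higher in labelled mRNA at 6 h, and ATP18 turned (0.13), as it did with the length trend removed (0.07). Summed mRNA reads also took the call from NDI1 (-0.07) and NDE1 (-0.16) at 1 °C against 5 °C and from ATP1 (-0.21) at 5 °C against 30 °C. In labelled mRNA at 1 °C from 6 h to 48 h CYB2 (0.30) lost its call on that scale and NDE1 (0.37) gained one. The cause was not tested.

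Replicate numbers were not taken to pair the samples, since not every pair of same-numbered libraries correlated above 0.1 in its deviations. The range was 0.06 to 0.17 in steady state and -0.19 to 0.18 at 1 °C. At 5 °C it was -0.32 to 0.61 without GSH (43 of 63 pairs above 0.1) and -0.16 to 0.69 with it (41 of 52). Medians at 5 °C were 0.20 without GSH and 0.24 with it, against -0.09 and -0.15 for pairs with other numbers. At 1 °C they were 0.04 and 0.06, against -0.03 and -0.02. A link by number at 5 °C is thus not excluded, and the half-life fits did join libraries by number. With a replicate block, 2 genes were higher at 1 °C against 5 °C, 2 had the larger rise at 5 °C without GSH, 4 the larger and 8 the smaller with GSH, and 1 was higher at 96 h than at 48 h at 5 °C with and without GSH. No other count changed by over 1.5 times.

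Leaving out 1 replicate gave 3 to 5 genes higher at 5 °C against 30 °C, 1 to 2 higher at 1 °C against 5 °C, 0 to 2 (larger rise) and 1 to 2 (smaller) for the interaction without GSH, 0 to 2 and 3 to 7 with it, 3 to 5 higher at 6 h, 1 to 2 higher at 48 h and 0 to 1 at 30 °C.

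Shares of the mRNA pool depend on the divisor. As shares of reads, not corrected for length, complex III held 0.269%, 0.188% and 0.142% at 30 °C, 5 °C and 1 °C in steady state, complex IV 0.113%, 0.084% and 0.0628%, ATP synthase 0.461%, 0.447% and 0.319%, and all 36 genes 1.03%, 0.836% and 0.616%. Labelled, the 36 held 0.243% at 1.5 h and 0.833% at 48 h at 5 °C, and 0.292% at 6 h and 0.614% at 48 h at 1 °C. Over all S. cerevisiae transcripts the values were 0.318%, 0.267% and 0.242%, 0.344%, 0.271% and 0.255%, 0.472%, 0.364% and 0.353%, and 1.18%, 0.939% and 0.893% in the same order, with 1.83% (5 °C) and 1.52% (1 °C) at 48 h. The order of temperatures stayed except for complex III, whose 5 °C and 30 °C shares in TPM were closer than their SDs. The median half-life, 54.7 h at 1 °C with GSH, was 13.1 h with 96 h included, 133 h with S. pombe protein-coding transcripts only and 350 h weighted by the inverse of the value, and at 5 °C without GSH, 12.1 h, it was 29.4 h with 96 h and 17.4 h weighted.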
